A study of Salmo salar with 72 samples.

Results

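The 100 genes described here were the most abundant genes that the distal intestine (DI) and the spleen of Atlantic salmon had in common. For each of the 69389 genes in the count tables, CPM (counts scaled to the same total in every library) was averaged over the 36 DI libraries and over the 36 spleen libraries, and the 100 genes with the highest value of the lower mean were taken. The libraries came from 36 smolts kept in seawater, 6 on each of 6 diets for 42 days, and each fish gave 1 library of each tissue. Fish fed the SBM diet received soybean meal in place of part of the fishmeal. Fish fed the ICJ and ACJ diets received soybean meal with inactivated or autolyzed Cyberlindnera jadinii yeast, those fed the IWA and AWA diets received soybean meal with inactivated or autolyzed Wickerhamomyces anomalus yeast, and those fed the FM diet received fishmeal without soybean meal. The yeast diets also held fishmeal, less than the SBM diet. Whole pieces of tissue were sequenced, and all the fish shared the smolt stage and the seawater rearing. The genes were thus chosen by their mean CPM in these libraries, so levels and their ratio between the tissues are described without a test. The tests concern the diets, whose labels the choice did not use. As the means ran over fish of all diets, the levels on each diet did enter the choice.

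Abundant transcripts shared by unlike tissues come largely from genes that every cell uses. Ribosomal proteins assemble with ribosomal RNA into the small and large subunits that make all proteins, elongation factors drive the growing chain, and chaperones fold it in the cytosol and in the endoplasmic reticulum. In vertebrates, introns of ribosomal protein genes often hold small nucleolar RNAs (snoRNAs), which guide chemical modification of ribosomal RNA. The DI is the hind part of the gut, where enterocytes take up intact protein and where soybean meal can cause inflammation in salmonids. The spleen filters blood and holds red blood cells, macrophages and lymphocytes, so genes of immune cells are also plentiful there.

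Libraries held between 6976621 and 30857656 fragments on genes in the DI and between 15062129 and 35187924 in the spleen. The tissue labels were checked with 5 enterocyte markers (mep1a.2, mep1ba, mep1bb, slc15a1 and cdx1b), whose summed level was 5.22 to 1853 CPM in the DI libraries and 0.433 to 19.5 CPM in the spleen libraries. The value of 5.22 belonged to DI ICJ replicate 4, the next lowest DI library had 293.7 CPM, and mep1ba was at 0 in 22 DI libraries. The marker slc15a1 did not separate the tissues, with a median of 0.509 CPM in the DI and 1.031 CPM in the spleen. It was at 0 in 5 DI libraries and reached 279.4 CPM in another. In DI ICJ replicate 4 the T cell gene cd3e and the B cell gene cd79b had 92.49 and 77.03 CPM, the highest of the DI. The other lymphocyte marker, cd8a, had 8.658 CPM there, against a DI median of 6.322 CPM and a highest DI value of 11.62 CPM. The main counts of ICJ|FM and its median log2 fold changes in the DI are therefore given with and without that library. Medians of shares and of marker levels by diet include it. Markers of red blood cells, chosen after the data had been seen, summed to 5.82 to 153.4 CPM in the DI and 1775 to 5608 CPM in the spleen. Markers of the exocrine pancreas, also chosen then, summed to 0 to 3362 CPM in the DI (median 0.957 CPM) and 0.373 to 12380 CPM in the spleen (median 196.2 CPM). Their part in the shares and the spread between fish was not tested. In such bulk samples, fewer cells of a type and less RNA per cell cannot be told apart.

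All 100 genes passed the filter on low counts in both tissues. Of the 100, 39 were also among the 100 genes with the highest mean CPM of the DI and 50 among those of the spleen, and the DI set the lower mean for 66. Just inside the limit were LOC106601336, LOC106588387 and LOC106587214, with lower means of 422.2, 420.6 and 420.4 CPM. Just outside were LOC106613766, LOC106606967 and LOC106601815, with 417.3, 416.0 and 410.3 CPM. The step at the limit was thus small, and a ranking by medians kept 97 of the 100, one without DI ICJ replicate 4 kept 98 and one on FM fish alone kept 92. Ranking by RPKM, which divides CPM by the summed exon length in kb, kept 57. The genes had a median exon length of 1951.5 bp, against 3736 bp for the 29351 genes tested in both tissues.

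A role could be assigned from the gene symbol to 50 of the 100. These were 12 proteins of the large and 9 of the small ribosomal subunit, 7 chaperones or folding enzymes, 7 genes of immunity and the lysosome, 5 RNA-binding proteins, 4 genes grouped as translation factors, 4 genes of the cytoskeleton and matrix, and 2 ferritin heavy chains. The translation group held EF1A2, EF2 and ef-1g, and also rack1, which does not encode an elongation factor. The other 50 carried LOC or Ensembl identifiers without a described product. A snoRNA gene lay within the span of 26 of the 99 genes on named chromosomes (26.263%), compared with 75 of 891 genes ranked 101 to 1000 (8.4175%) and 342 of 28165 genes tested in both tissues (1.2143%). Of the 21 ribosomal protein genes, 15 held one. The largest number, 9, lay in ncl, which encodes nucleolin, a protein of the nucleolus where ribosomal RNA is made and modified.

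The 100 genes took 7.11% to 18.98% of the fragments of a DI library (median 9.88%) and 10.04% to 15.28% of a spleen library (median 12.87%). The highest DI share was that of ICJ replicate 4. Without it the DI shares reached 14.64% and the median was again 9.88%, and the ranges of the tissues still overlapped. By diet, the median share in the DI was 9.56% (SBM), 11.03% (ICJ), 10.33% (ACJ), 9.47% (IWA) and 9.36% (AWA), against 8.73% in FM fish. In the spleen it was 12.12% (SBM), 13.02% (ICJ), 13.44% (ACJ), 13.83% (IWA) and 12.42% (AWA), against 13.41% in FM fish.

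**Figure D1:**
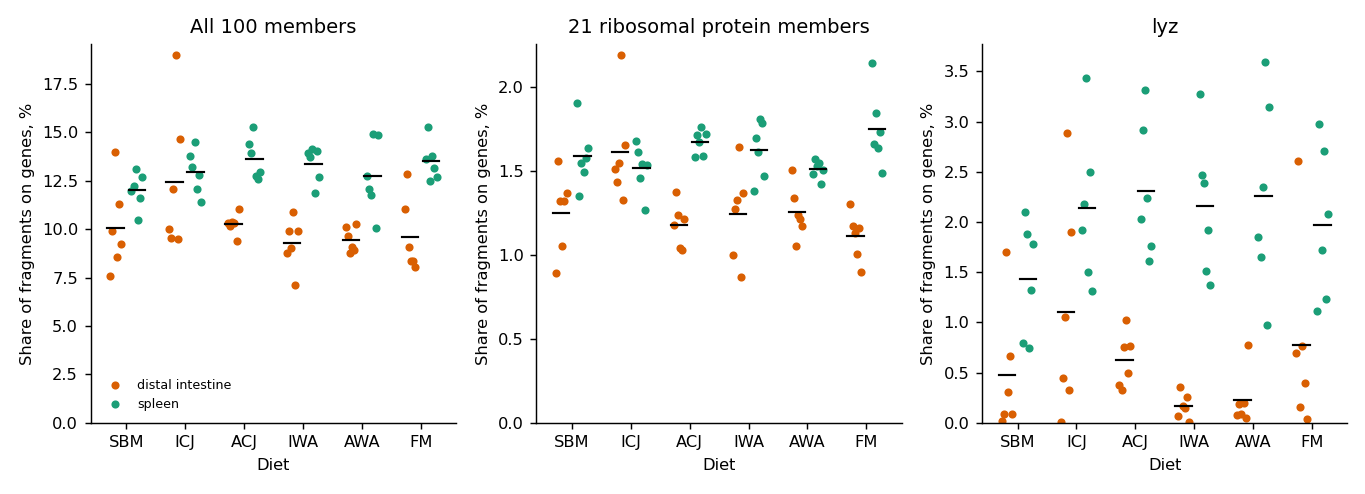
Share of a library's fragments on genes (%) taken by the 100 genes, the 21 ribosomal protein genes and lyz, plotted by diet, with 1 point for each fish, the DI left of the spleen, and bars for the mean of 6 fish. The 100 genes took 7.11% to 18.98% in the DI and 10.04% to 15.28% in the spleen, and DI ICJ replicate 4 was the highest point of the DI.

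Per unit of length, lysozyme stood first in both tissues. The gene lyz (ENSSSAG00000076584, Ssal_v3.1 chromosome 1, 165036066 to 165039598) encodes lysozyme, an enzyme of phagocytes that cuts bacterial cell walls, and its mean level was 5991 RPKM in the DI and 21813 RPKM in the spleen. Its level ranged over 45.4 to 28902 CPM in the DI (median 3240 CPM) and over 7435 to 35942 CPM in the spleen (median 19178 CPM). The ranges overlapped, yet lyz was higher in the DI in only 2 of the 36 fish. FRIH (ENSSSAG00000049977, chromosome 26), a heavy chain of ferritin, which stores iron, followed in the DI with a mean of 2519 RPKM and had 2883 RPKM in the spleen.

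The other genes among the 10 of the 100 with the highest mean RPKM in the DI were LOC123741723 (1498), LOC106578890 (1276), rplp1 (1261), cd74a (1239), LOC106580619 (1174), rps20 (1082), LOC106611749 (1038) and fel (1007). In the spleen they were cd74a (4562), cfd (3519), LOC123741723 (2761), LOC106573482 (1962), ENSSSAG00000048830 (1922), rplp1 (1685), fel (1264) and rps20 (1224). Among these, rplp1 and rps20 encode parts of the large and the small ribosomal subunit, cd74a encodes the invariant chain that escorts MHC class II molecules, cfd encodes complement factor D, and fel encodes a fish egg lectin that binds sugars on microbes. The span named LOC123741723 here covers 3 immunoglobulin or T cell receptor gene segments of the annotation, so what its fragments measure is uncertain. At the other end, LOC106601336, which had the lowest RPKM of the 100 in both tissues, had 19.3 RPKM in the DI and 25.1 RPKM in the spleen.

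**Figure D2:**
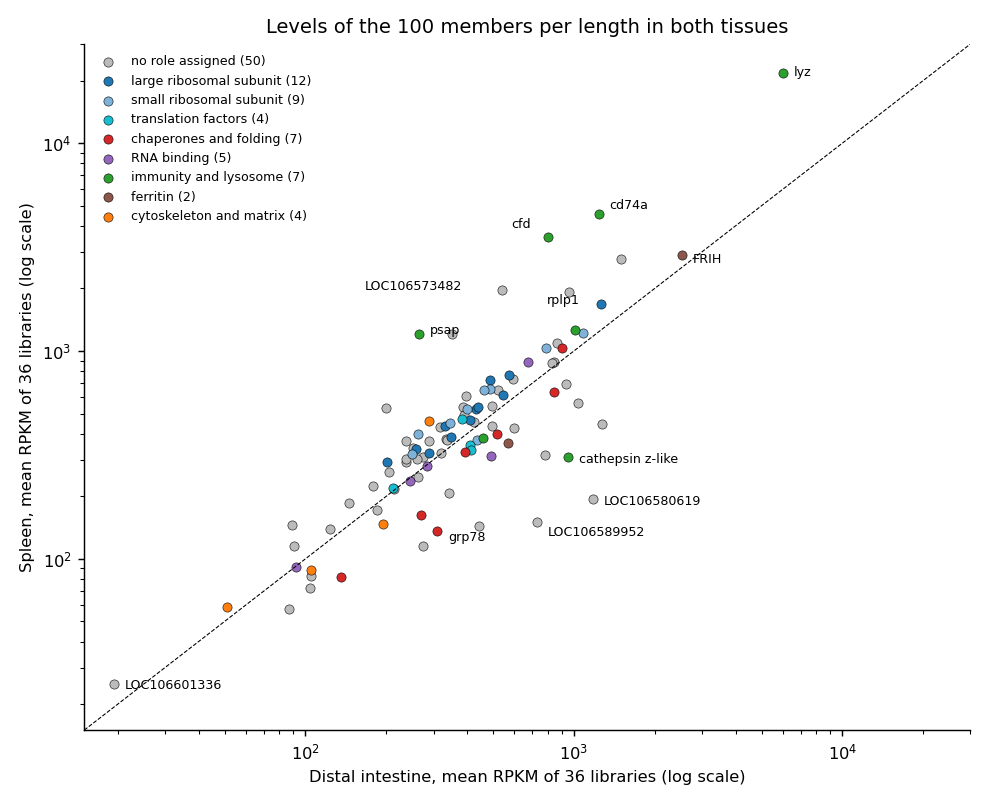
Mean RPKM of each of the 100 genes in the 36 DI libraries (horizontal, log scale) and the 36 spleen libraries (vertical, log scale), coloured by assigned role, with a dashed line where both are equal. Ribosomal protein genes lie close to the line, all but rpsa on its spleen side, while lyz (5991 and 21813 RPKM), cd74a and cfd lie far on that side and LOC106580619 far on the DI side.

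Most of the 100 were close in level between the tissues. The ratio of mean CPM, DI over spleen, lay within 1.5-fold for 71 of them and within 2-fold for 84, compared with 39.93% and 60.52% of the genes tested in both tissues. As a choice by the lower of both means favours genes that are high in both tissues, nothing is read from that comparison. A total of 34 were higher in the DI, against 39.13% of all genes tested in both tissues. The median ratio was 0.876, against 0.824 for all genes tested. The side depended on scaling, since TMM factors over all 72 libraries moved the median of all genes to 0.969 and that of the 100 to 1.04. With them 54 of the 100 and 14135 of all 29351 genes were higher in the DI. Of the 100, 20 were on another side than by CPM. Named ratios below keep their side under both scalings unless stated.

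Several of the genes with the lowest ratios are known from immune cells. The lowest ratios belonged to psap (0.219), which encodes the precursor of the saposins that help to break down lipids in lysosomes, cfd (0.227), cd74a (0.272), lyz (0.275), LOC106573482 (0.275), LOC106611871 (0.292), LOC106560581 (0.376) and ENSSSAG00000048830 (0.497). For psap the level was 138.3 to 3627 CPM in the DI (median 573.3 CPM) and 2203 to 5001 CPM in the spleen (median 4002 CPM). The spleen was the higher tissue in every one of the 36 fish, although the ranges overlapped. The cd74a level was 626.9 to 5327 CPM in the DI (median 1802 CPM) and 4133 to 9102 CPM in the spleen (median 7699 CPM). This gene too was higher in the spleen of all 36 fish. Of the 7 genes of immunity and the lysosome, only the cathepsin z-like gene and mbl2, which encodes a mannose-binding lectin of the complement system, had a higher mean in the DI, and mbl2 was higher there in only 15 of the 36 fish.

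The highest ratios belonged to LOC106580619 (6.07), LOC106589952 (4.85), the cathepsin z-like gene (3.09), LOC106565579 (3.05), LOC106578890 (2.85), LOC106595815 (2.48), LOC106587214 (2.38) and grp78 (2.26). LOC106580619 (ENSSSAG00000075108, chromosome 20, 41308663 to 41316378), which the reference annotation lists as a transcribed pseudogene, had 636.7 to 5469 CPM in the DI (median 3070 CPM) and 339.4 to 687.9 CPM in the spleen (median 537.0 CPM). The ranges met only at their edges, and the DI was higher in all 36 fish. The cathepsin z-like gene (ENSSSAG00000106221, chromosome 12), of the family of lysosomal proteases, had 1361 to 5184 CPM in the DI (median 3460 CPM) and 640.8 to 1667 CPM in the spleen (median 1060 CPM). Grp78, the Hsp70 chaperone of the endoplasmic reticulum, had 442.6 to 1812 CPM in the DI (median 1168 CPM) and 321.8 to 704.3 CPM in the spleen (median 460.3 CPM). Both genes overlapped between the tissues over part of their range and were higher in the DI of all 36 fish.

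The groups that serve protein synthesis differed in the same description. All 12 large-subunit genes and 8 of the 9 small-subunit genes were lower in the DI, with median ratios of 0.791 (range 0.674 to 0.909) and 0.760 (range 0.660 to 1.17). The exception was rpsa, which encodes a small-subunit protein also known as the laminin receptor. Under TMM scaling the median ratio of the 21 was 0.904 and 6 were higher in the DI. In a wider list of ribosomal protein symbols, 20 of which are among the 100, 63 of 69 genes tested in both tissues were lower in the DI, with a median ratio of 0.782 against 0.824 for all genes. Of all genes tested in both tissues, 39.13% were higher in the DI by the same scaling. Of the 7 chaperones and folding enzymes, 6 were higher in the DI (median 1.33, range 0.869 to 2.26), the exception being hspa8, the constitutive cytosolic Hsp70, whose ratio of 0.869 passed to the other side under TMM scaling. Medians lay near 1 for RNA-binding proteins (1.01, range 0.758 to 1.57), the translation group (1.06, 0.811 for rack1 to 1.24) and genes of the cytoskeleton and matrix (1.03, 0.626 to 1.32). Under TMM scaling these medians were between 1.19 and 1.26. Several of these genes are in use as reference genes for quantitative PCR: the ratio was 0.626 for actb (beta-actin), 0.884 for rps20, which was 1.04 under TMM scaling, and 1.16 for EF1A2 (an elongation factor 1 alpha).

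Salmon carry many duplicated genes, and some of the 100 were copies of each other by their symbols, since sequences were not compared. The level in RPKM of rps3a was 1.21 times that of rs3a in the DI and 1.25 times in the spleen, and that of rpl6 was 0.607 and 0.676 times that of rl6. The cytosolic Hsp90 genes were less even, hsp90ab1 having 2.88 times the level of hs90b in the DI and 3.99 times in the spleen. FRIH had 4.41 and 7.99 times the level of frih. Fragments that fit several places had not been counted, so levels of near-identical copies are uncertain.

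The diets were then compared with FM in the DI. With edgeR and adjusted p under 0.05, 0 of the 100 genes were called for SBM|FM, ICJ|FM, ACJ|FM and IWA|FM, where 0.0187%, 0.0466%, 0.00311% and 0.308% of all 32157 genes tested were called. For AWA|FM 6 were called, all higher in fish fed AWA, where 3.41% of all genes were called, 2.13% as higher. Of the 900 genes ranked 101 to 1000 by the same measure, 58 were called (6.444%), so 6 of 100 was close to the share among other abundant genes. DESeq2 called 0 of the 100 in SBM|FM (0.458% of all genes) and ACJ|FM (0.122%), 7 in ICJ|FM (0.927%), 7 in IWA|FM (3.07%) and 13 in AWA|FM (7.63%). Among ranks 101 to 1000 it called 2.0% in ICJ|FM, 4.889% in IWA|FM and 13.0% in AWA|FM, the last equal to the share of the 100. At an unadjusted p under 0.05 the numbers with edgeR were 6 in SBM|FM (8.84% of all genes), 53 in ICJ|FM (13.0%), 2 in ACJ|FM (4.52%), 21 in IWA|FM (18.7%) and 20 in AWA|FM (24.2%). The shares among ranks 101 to 1000 were 11.33%, 28.67%, 5.889%, 26.33% and 33.0% in the same order. A test for any difference among the 6 diets called 0 with edgeR (0.379% of all genes), and 22 had an unadjusted p under 0.05 (16.0%). DESeq2 called 9 in that test (3.73% of all genes, 6.889% of ranks 101 to 1000). These were rpl4, rs2, rpsa, hsp90b1, grp78, cirbp, ncl, ENSSSAG00000048830 and LOC106574723.

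Of the 6 genes called for AWA|FM, 3 encode chaperones: hsp90b1 and grp78 of the endoplasmic reticulum and hs90b of the cytosol. The others were ncl, rpsa and myosin heavy chain 9, a non-muscle myosin that pulls on actin filaments. DESeq2 called these 6 as well, and beyond them hsp90ab1, hspa8, EF2, cirbp and k2c8, a keratin, as higher in AWA and LOC123730933 and LOC106574723 as lower. Levels below are CPM after TMM scaling, and n is 6 fish per diet.

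The gene hsp90b1 (ENSSSAG00000043708, chromosome 10, 118178278 to 118186125) encodes the Hsp90 of the endoplasmic reticulum, which folds secreted and membrane proteins. Its level in the DI was 1141 to 1567 CPM (median 1303 CPM) in fish fed AWA and 586.5 to 819.9 CPM (median 633.9 CPM) in fish fed FM. All 6 AWA fish lay above all 6 FM fish, and the log2 fold change was 1.00 (standard error 0.227, adjusted p = 0.0189 with edgeR).

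The gene grp78 (ENSSSAG00000054661, chromosome 11, 80724180 to 80729341), whose product works beside it, had 1023 to 1643 CPM (median 1415 CPM) in AWA and 621.0 to 1035 CPM (median 674.9 CPM) in FM. The groups touched, as the highest FM fish, replicate 3, lay just above the lowest AWA fish. The log2 fold change was 0.94 (standard error 0.235, adjusted p = 0.0267 with edgeR).

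The gene hs90b (ENSSSAG00000002480, chromosome 6, 50238812 to 50273025) encodes a cytosolic Hsp90 that steadies signalling proteins. Its span also covers the RefSeq gene LOC106607598, so its fragments may not measure 1 gene. It had 756.8 to 1039 CPM (median 903.2 CPM) in AWA and 409.5 to 643.0 CPM (median 475.3 CPM) in FM, without overlap. The log2 fold change was 0.83 (standard error 0.224, adjusted p = 0.0373 with edgeR). Its copy hsp90ab1 had a log2 fold change of 0.74 and missed the threshold (adjusted p = 0.0604 with edgeR).

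Myosin heavy chain 9 (ENSSSAG00000041571, chromosome 6, 33508174 to 33542919) had 482.4 to 652.7 CPM (median 582.7 CPM) in AWA and 291.8 to 490.4 CPM (median 377.6 CPM) in FM, with 1 AWA fish below the highest FM fish. The log2 fold change was 0.54 (standard error 0.154, adjusted p = 0.0441 with edgeR). The gene rpsa (ENSSSAG00000067773, chromosome 2, 58821842 to 58826642) had 473.2 to 651.6 CPM (median 526.2 CPM) in AWA and 305.2 to 440.4 CPM (median 379.5 CPM) in FM. The groups did not overlap, and the log2 fold change was 0.54 (standard error 0.157, adjusted p = 0.0479 with edgeR). The gene ncl (ENSSSAG00000009241, chromosome 16, 53290732 to 53305065) had 474.9 to 681.9 CPM (median 574.9 CPM) in AWA and 339.3 to 440.1 CPM (median 395.7 CPM) in FM. These groups were also separate, and the change was 0.56 on the log2 scale (standard error 0.162, adjusted p = 0.0482 with edgeR).

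The summed enterocyte markers were lower in the same AWA fish, at 420.0 to 790.9 CPM (median 521.7 CPM), than in FM fish at 757.1 to 1853 CPM (median 1229 CPM), and mep1ba was at or near 0 in both. Medians on the other diets were also below that of FM, at 619.2 CPM (SBM), 394.9 CPM (ICJ), 1010 CPM (ACJ) and 618.6 CPM (IWA). The part of these markers in the 6 results was not tested. The calls stood close to the threshold. Without the 3 FM libraries that the authors counted in another folder, or without AWA replicate 1 or AWA replicate 5, 0 of the 100 were called for AWA|FM, and 9 were called without ICJ replicate 4. Without the 3 FM libraries 0.01784% of all genes were called, against 3.41% with them. Shares of all genes for the omissions of 1 library are not given here. The chaperones were called most often. Over the 36 fits that left out 1 library each, hsp90b1 was called in 34, grp78 in 29, hs90b in 26, myosin heavy chain 9 in 19, rpsa in 10 and ncl in 9.

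In fish fed IWA the same 6 genes had log2 fold changes of 0.88 (hsp90b1), 0.83 (grp78), 0.71 (hs90b), 0.47 (myosin heavy chain 9), 0.59 (rpsa) and 0.62 (ncl), and edgeR called none of them, with adjusted p between 0.0644 and 0.117. DESeq2 called hsp90b1 (adjusted p = 0.0144), ncl (0.0103), grp78 (0.0280), myosin heavy chain 9 (0.0460) and rpsa (0.0124), but not hs90b, and its 7 calls in IWA|FM were completed by EF2, which encodes elongation factor 2, and LOC106574723, the only one of the 7 that was lower in IWA. IWA|FM and AWA|FM share the FM fish. For hsp90b1 the IWA level was 665.1 to 1396 CPM (median 1348 CPM), with 1 IWA fish inside the FM range and the others above it.

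**Figure D3:**
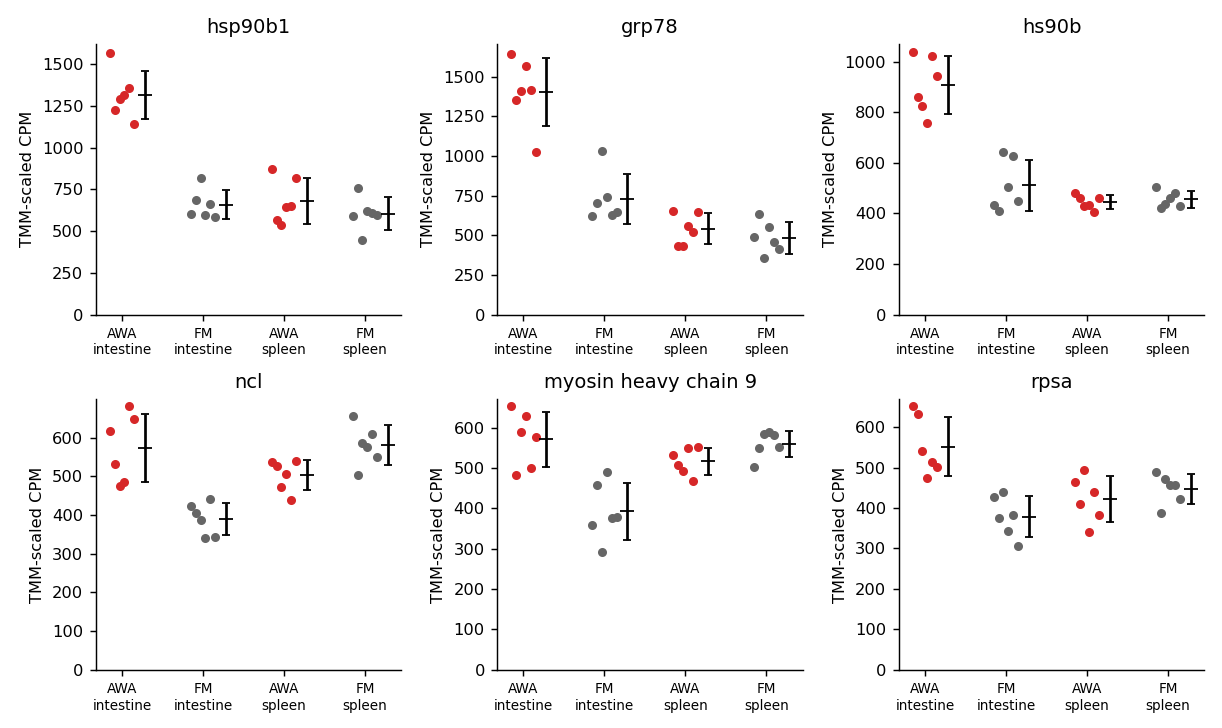
TMM-scaled CPM of the 6 genes called in the DI for AWA|FM, in AWA and FM fish of the DI and in AWA and FM fish of the spleen, with 1 point for each fish and the mean with its SD beside them (n = 6). In the DI, hsp90b1 lay at 1141 to 1567 CPM in AWA and 586.5 to 819.9 CPM in FM, whereas in the spleen the diets overlapped for each of the 6 genes.

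Other groups of the 100 showed wide intervals in the DI. For AWA|FM, 6 of the 7 genes of immunity and the lysosome had negative log2 fold changes (median -1.02, against -0.08 for all genes tested), but edgeR called 0 of the 7. Of the 7, 1 was positive in IWA|FM (median -0.83), 2 in SBM|FM (-0.33), 6 in ACJ|FM (0.27) and 6 in ICJ|FM (0.32). Without DI ICJ replicate 4, ICJ|FM had 4 positive (median 0.07). Summed markers of other cells were also lower in AWA, with 23.2 to 65.0 CPM (median 38.2 CPM) in AWA and 43.5 to 88.6 CPM (median 49.5 CPM) in FM for lymphocytes, and 5.82 to 52.5 CPM (median 7.45 CPM) in AWA and 13.4 to 153.4 CPM (median 24.7 CPM) in FM for red blood cells. The AWA and FM groups overlapped. Medians on the other diets were 52.46 CPM (SBM), 57.07 CPM (ICJ), 55.93 CPM (ACJ) and 27.71 CPM (IWA) for lymphocytes. For red blood cells they were 26.67, 21.14, 21.85 and 12.85 CPM in the same order. The part of these cells in the values was not tested. For lyz the level was 462.6 to 7116 CPM (median 1443 CPM) in AWA and 303.0 to 23820 CPM (median 5502 CPM) in FM. The groups overlapped almost fully, and the log2 fold change of -1.71 had a confidence interval from -3.68 to 0.26 (adjusted p = 0.265 with edgeR). LOC106574723 (ENSSSAG00000048974, chromosome 2), which only some settings called and which was picked after its values were seen, had 104.0 to 361.3 CPM (median 156.6 CPM) in AWA and 274.9 to 953.9 CPM (median 628.6 CPM) in FM. Its log2 fold change was -1.73 in AWA|FM (adjusted p = 0.0736 with edgeR and 0.0261 with DESeq2) and -2.07 in IWA|FM (adjusted p = 0.0851 with edgeR and 0.0137 with DESeq2).

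The most positive values were those of ICJ|FM. In this comparison 86 had a positive log2 fold change in the DI, with a median of 0.42 against 0.26 for genes ranked 101 to 1000 and 0.00 for all genes tested, and all 21 ribosomal protein genes were positive (median 0.43, range 0.35 to 0.72), yet edgeR called 0. Of ranks 101 to 1000, 703 of 900 were positive, and of all genes tested 16218 of 32157. The summed enterocyte markers had a median of 394.9 CPM in the 6 ICJ fish (380.0 to 1338 CPM without replicate 4), against 1229 CPM in FM fish (757.1 to 1853 CPM), and their part in these values was not tested. Without DI ICJ replicate 4, whose enterocyte markers were near 0, 85 of the 100 were positive and edgeR again called 0. The median was then 0.31 for the 100 and 0.38 for the 21 (range 0.20 to 0.79). At an unadjusted p under 0.05 there were 35 genes rather than 53, and the share of all genes for that omission is not given here. A fit of only the 12 libraries of ICJ and FM left 18, against 6.825% of all genes and 15.5% of ranks 101 to 1000. The 18 were thus close to the share among other abundant genes. The 7 genes DESeq2 called were rpsa, cirbp, rpl4, hsp90b1, ef-1g, rack1 and LOC106565377, all higher in ICJ. Without that fish DESeq2 called 4, which were rpsa, cirbp, rpl4 and hsp90b1 (0.8788% of all genes). Among them cirbp, which encodes a cold-inducible RNA-binding protein, had 546.7 to 780.6 CPM (median 686.9 CPM) in ICJ and 318.1 to 501.8 CPM (median 404.8 CPM) in FM. The groups were separate, and the difference was 0.77 on the log2 scale (adjusted p = 0.112 with edgeR and 0.0132 with DESeq2).

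For the other diets the median log2 fold change of the 100 in the DI was 0.16 in SBM|FM, 0.12 in ACJ|FM, 0.10 in IWA|FM and 0.18 in AWA|FM, against -0.03, -0.02, -0.01 and -0.08 for all genes tested. Genes ranked 101 to 1000 had medians of 0.16, 0.11, 0.11 and 0.19, close to those of the 100. All 7 chaperones and folding enzymes were positive in each of these comparisons, and 66 of the 100 in IWA|FM to 81 in SBM|FM. Among ranks 101 to 1000, 582 of 900 were positive in IWA|FM and 682 in SBM|FM. Among all 32157 genes tested 15886 and 14879 were positive. The counts of the 100 were thus near those of other abundant genes. All comparisons share the 6 FM fish, so that a low or high level in FM enters each of them.

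**Figure D4:**
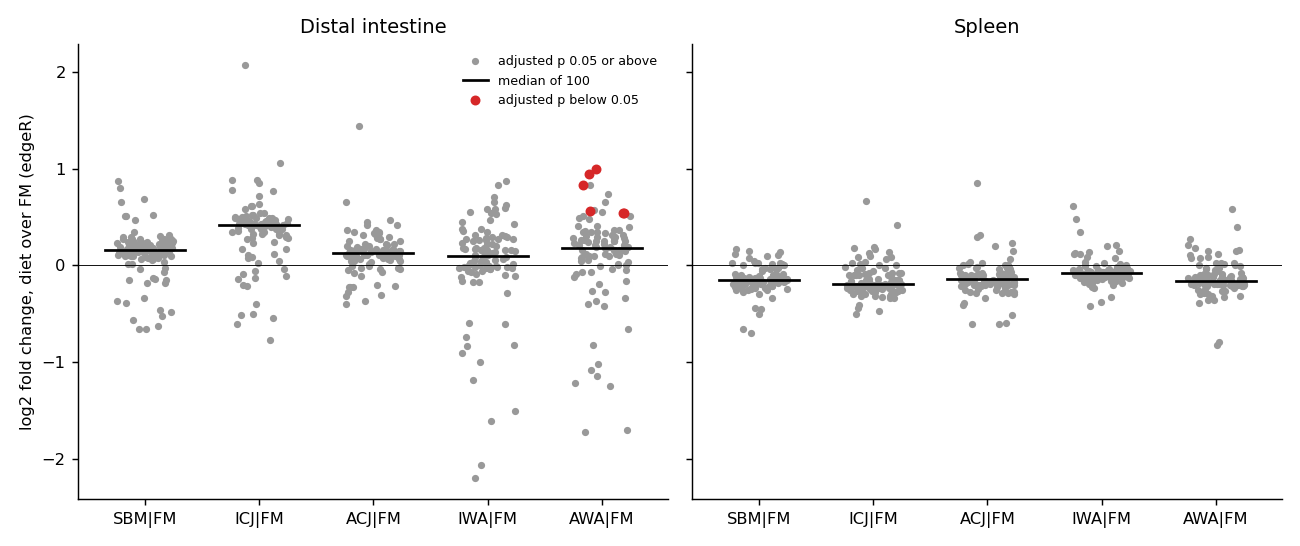
Log2 fold change of each of the 100 genes, diet over FM, from edgeR, in the DI (left) and the spleen (right), with black bars for the median of the 100 and red points for adjusted p below 0.05. The only red points are the 6 genes of AWA|FM in the DI, and medians lie above 0 in the DI (0.10 to 0.42) and below 0 in the spleen (-0.20 to -0.08).

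In the spleen edgeR called 0 of the 100 in each comparison with FM and 0.0% of all 32144 genes tested. At an unadjusted p under 0.05 SBM|FM had 8 (7.95% of all genes), ICJ|FM 31 (6.51%) and ACJ|FM 15 (8.13%). IWA|FM had 5 (5.95%), AWA|FM 16 (9.2%) and the test for any diet difference 5 (5.12%). Among ranks 101 to 1000 the share was 12.22% in ICJ|FM and 14.11% in ACJ|FM and AWA|FM. In SBM|FM and IWA|FM it was above that of the 100. Fits of only the 12 libraries compared left 4 (SBM|FM), 6 (ICJ|FM), 6 (ACJ|FM), 3 (IWA|FM) and 6 (AWA|FM). Ranks 101 to 1000 then had 5.117% to 7.786%. The excess in ICJ|FM was thus not kept in that fit. DESeq2 called 1 of the 100 in AWA|FM (0.0795% of all genes), which was LOC106572585, and 0 in SBM|FM (0.0494%), ICJ|FM (0.017%), ACJ|FM (0.00944%), IWA|FM (0.00755%) and the test for any diet difference (0.0648%). This gene (ENSSSAG00000065715, chromosome 15, 92946882 to 92951819) had 530.4 to 562.2 CPM (median 546.3 CPM) in AWA and 597.4 to 726.5 CPM (median 637.9 CPM) in FM. The groups did not overlap, but the difference was small, at -0.23 on the log2 scale (adjusted p = 0.336 with edgeR and 0.0464 with DESeq2).

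Median log2 fold changes of the 100 in the spleen were -0.15 in SBM|FM, -0.20 in ICJ|FM, -0.14 in ACJ|FM, -0.08 in IWA|FM and -0.16 in AWA|FM, and 12 to 19 of the 100 were positive. Of all 32144 genes tested, 14996 (SBM|FM) to 15957 (ACJ|FM) were positive. Of ranks 101 to 1000, 208 of 900 were positive in SBM|FM and 211 in ICJ|FM. Ranks 101 to 1000 had medians between -0.10 and -0.07. All 21 ribosomal protein genes were negative in the spleen in ICJ|FM (median -0.24), ACJ|FM (-0.15) and IWA|FM (-0.10). In SBM|FM (median -0.16) and AWA|FM (median -0.19) 1 of the 21 was positive. The same FM fish enter each of these comparisons. FM replicate 1 had the highest share of spleen fragments on the 21 genes, 2.14%, against a median of 1.69% in FM fish. Medians without that fish are not given here. The 6 genes called in the DI had log2 fold changes in AWA|FM of 0.17 (hsp90b1), 0.16 (grp78), -0.03 (hs90b), -0.12 (myosin heavy chain 9), -0.08 (rpsa) and -0.20 (ncl) in the spleen, and none was called (adjusted p of 0.421 or more with edgeR).

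Whether the response differed between the tissues was tested within fish, each fit holding both tissues of 12 fish on a diet and FM. EdgeR called 0 of the 100 as different for SBM|FM, ICJ|FM and ACJ|FM (0.0% of all genes each), 0 for IWA|FM (0.069%) and 1 for AWA|FM (3.22%). That gene was hs90b, whose response was 0.85 higher in the DI than in the spleen on the log2 scale (standard error 0.208, confidence interval 0.40 to 1.30, adjusted p = 0.0438). In the spleen it had 406.8 to 479.4 CPM (median 447.2 CPM) in AWA and 422.6 to 503.9 CPM (median 448.1 CPM) in FM, which overlapped almost fully. With RLE size factors the call was lost (adjusted p = 0.0530 with edgeR). Unadjusted p under 0.05 were found for 6 (SBM|FM, 6.96% of all genes), 45 (ICJ|FM, 7.13%), 3 (ACJ|FM, 4.63%), 15 (IWA|FM, 13.7%) and 22 (AWA|FM, 21.1%), while DESeq2 called 1 (0.292%), 8 (0.325%), 0 (0.0389%), 7 (4.22%) and 15 (8.66%) in the same order. Without the fish ICJ replicate 4 these numbers for ICJ|FM were 36 with edgeR and 7 with DESeq2 (0.3296% of all genes). The share of all genes beside the 36 is not given here.

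Fish on the same diet also differed. The pooled SD of log2 CPM among fish of a diet had a median over the 100 of 0.33 in the DI and 0.21 in the spleen, against 0.51 and 0.29 for all genes tested and 0.36 and 0.19 for ranks 101 to 1000. It was larger in the DI for 98 of the 100. The share of all genes with a larger SD in the DI is not given here. As their medians were also larger in the DI, nothing particular to the 100 is read from that count. The largest SD in the DI were those of lyz (2.11), LOC123741723 (1.89), ENSSSAG00000048830 (1.77), fel (1.66) and LOC106578890 (1.18). In the spleen they were those of fel (1.18), LOC106578890 (1.08), LOC106565579 (1.01), LOC123741723 (0.76) and LOC106574723 (0.62). For fel the level was 18.6 to 3869 TMM-scaled CPM in the DI (median 1023 CPM) and 72.6 to 3559 CPM in the spleen (median 1213 CPM), so that single fish were low or high within either tissue.

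The steadiest genes were LOC106572585 (SD 0.15), rpl4 (0.17), LOC106601336 (0.21), LOC106611941 (0.22) and ybx1 (0.22) in the DI. In the spleen they were LOC106572585 (0.09), LOC106570033 (0.10), hs90b (0.10), myosin heavy chain 9 (0.11) and ENSSSAG00000079820 (0.11). LOC106572585 was first in both tissues and ranged over 480.3 to 699.7 TMM-scaled CPM in the DI (median 574.9 CPM) and 498.8 to 726.5 CPM in the spleen (median 586.5 CPM). Its highest library thus had 1.46 times the level of its lowest in either tissue. By comparison actb had an SD of 0.41 in the DI and 0.45 in the spleen, rps20 0.32 and 0.29, and EF1A2 0.26 and 0.14. Of the steady genes, rpl4 encodes a large-subunit protein and ybx1 a Y-box protein that packages messenger RNA.

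Among fish of the same diet, several genes with wide spread varied together, given here as correlations of deviations from the diet means over 36 libraries of a tissue, which share sequencing depth and tissue composition within each library. In the DI, lyz had r = 0.912 (rho 0.906) with ENSSSAG00000048830, 0.885 (rho 0.841) with LOC123741723, 0.876 (rho 0.795) with fel, 0.854 (rho 0.775) with LOC106574723 and 0.849 (rho 0.797) with cfd. Not all genes of wide spread went along, as lyz had -0.259 (rho -0.266) with LOC106578890 and -0.325 (rho -0.314) with LOC106565579. In the spleen, lyz had 0.495 (rho 0.501) with ENSSSAG00000048830, 0.389 (rho 0.357) with LOC123741723, 0.218 (rho 0.179) with fel and 0.840 (rho 0.837) with LOC106574723, while cfd was not among the genes of widest spread compared there. LOC106578890 and LOC106565579, on chromosomes 19 and 12, had r = 0.994 in the DI and 0.993 in the spleen, close to the 0.992 and 0.985 of the copies rps3a and rs3a. Neither carries a described product here.

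Levels in the DI and the spleen of the same fish were little related. The correlation over 36 fish of deviations from the diet means had a median of 0.02 over the 100 genes and 0.08 over all genes tested in both tissues. The exception was actb (ENSSSAG00000116649, chromosome 3, 101422453 to 101428992), with r = 0.761 and rho = 0.706, and r = 0.706 without the 2 fish farthest from the median. Its level was 686.0 to 2297 TMM-scaled CPM in the DI (median 1293 CPM) and 1229 to 3245 CPM in the spleen (median 2030 CPM). Fish with a high level in one tissue thus tended to have a high level in the other. The next highest values were 0.555 for ENSSSAG00000100279 and 0.449 for hsp90b1. These genes were picked as the highest of 100, so no p is given.

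**Figure D5:**
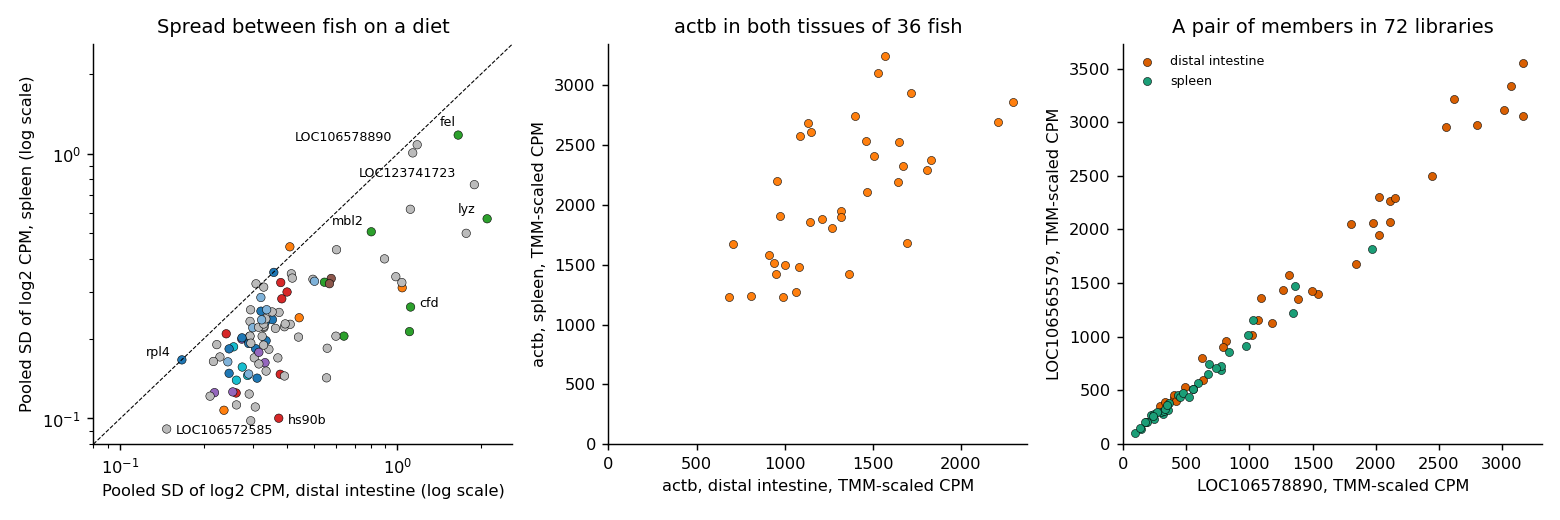
Left, the pooled SD of log2 CPM among fish of a diet for each of the 100 genes, DI (horizontal) and spleen (vertical), on log scales with a dashed line of equality; middle, actb in the DI and the spleen of 36 fish; right, LOC106578890 and LOC106565579 in the 36 DI and 36 spleen libraries, all in TMM-scaled CPM. In the left panel 98 of the 100 points lie on the DI side, from LOC106572585 (0.15 and 0.09) to lyz (2.11 and 0.57). The median SD of all genes tested was also larger in the DI (0.51) than in the spleen (0.29).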

How the data were processed

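RNA of the DI and spleen of 6 fish per diet was sequenced from stranded mRNA libraries. Per the submitters' processing notes, the authors trimmed with Trim Galore, aligned with STAR and RSEM, and deposited raw counts of fragments per gene from featureCounts (stranded, without multi-mapped fragments) on Ssal_v3.1. Tanks (3 per diet) are not labelled, so fish were treated as independent, and p-values take no account of fish having shared a tank.

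Counts were tested with edgeR 4.0.16 in R 4.3.3 (default low-count filter, TMM, robust quasi-likelihood, 36 libraries of a tissue in 1 fit), with Benjamini-Hochberg adjustment over all genes tested and a threshold of 0.05. The interaction of diet and tissue had fish as a block. DESeq2 1.42.0, RLE size factors, no filter, smaller fits, a replicate block, a fold limit and omission of each library were alternatives. Tests were checked on simulated data. Gene names came from the RefSeq annotation by position, 82 of the 100 being paired by span, and roles from symbols.

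The 100 genes, the lists and the tests were chosen with earlier results of these data known. Named are the 10 of the 100 with the highest RPKM in each tissue, the 8 highest and 8 lowest DI to spleen ratios, every gene called by edgeR, the 5 largest and smallest SD, the genes at the limit and reference genes. Marker and role lists that rest on product names could not be applied, and red blood cell, pancreas and lymphocyte markers were added after the data had been seen.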

Additional observations from a re-analysis of the deposited data

Results flagged for a closer look

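Groups of 6 fish were screened for a single fish far from the others, in the share of the 100 genes, of their ribosomal genes and of lyz and in the levels of the 6 genes called for AWA|FM, 60 groups in all. Chance flags about 1 in 20. The lyz share of DI fragments in AWA replicate 6 was 0.77%, above the median of 0.137% of the AWA fish. In FM replicate 2 it was 2.61%, against a median of 0.544% of the FM fish. The grp78 level in the DI of FM replicate 3 was 1035 TMM-scaled CPM, above the median of 674.9 CPM of the FM fish, and it was this fish that overlapped the AWA fish.

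The response of hs90b to AWA was 0.85 higher in the DI than in the spleen on the log2 scale (adjusted p = 0.0438 with edgeR, 0.000186 with DESeq2), the single gene of the 100 that edgeR called between the tissues, where it called 3.22% of all genes. With RLE size factors the adjusted p was 0.0530 with edgeR and the call was lost.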

How the results depend on the processing

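Of the counts of genes called among the 100, DESeq2 gave in the DI 7 (ICJ|FM), 7 (IWA|FM), 13 (AWA|FM) and 9 (any diet difference), where edgeR gave 0, 0, 6 and 0. In the spleen it gave 1 (AWA|FM), where edgeR gave 0, and between the tissues 15 (AWA|FM), 8 (ICJ|FM), 7 (IWA|FM) and 1 (SBM|FM), where edgeR gave 1, 0, 0 and 0. Without the fish ICJ replicate 4, a setting added after the data had been seen, DESeq2 gave 4 for ICJ|FM in the DI and 7 between the tissues. For AWA|FM in the DI, edgeR called 1 (hsp90b1) without a filter on low counts, where it called 0.8468% of all genes. It called 2 (hsp90b1 and grp78) with the replicate block (1.76%) and 0 without the 3 FM libraries counted in another folder (0.01784%). With a log2 fold change above 2 or below -2 it called 0 of the 100 and 223 of all 32157 genes. RLE size factors left 4 for AWA|FM in the DI (3.06%) and 0 between the tissues. A fit of the 12 libraries compared called 9 for AWA|FM, where it called 10.61% of all genes, and 1, LOC106574723, for IWA|FM (1.44%). Leaving out 1 library at a time gave 0 to 9 for AWA|FM (0 without AWA replicate 1 or 5, 9 without ICJ replicate 4), 0 to 4 for IWA|FM (4 without ICJ replicate 4), 0 to 2 for ICJ|FM (2 without ICJ replicate 2) and 0 to 1 for any diet difference in the DI. Every other count of the DI and the spleen stayed at 0 in these omissions. Shares of all genes called in these omissions are not given here, so nothing particular to the 100 is read from them. Why these counts moved was not tested. No fold change of the 6 genes called for AWA|FM, or of hs90b between the tissues, turned its sign in these settings, but 58 rather than 66 of the 100 were positive for IWA|FM in the DI with RLE or DESeq2. Among the 900 genes ranked 101 to 1000 there were 535 (RLE) and 539 (DESeq2) rather than 582. Without the 3 FM libraries 77 of the 100 and 623 of those 900 were positive. DI medians of the 100 were then higher, at 0.30 (SBM|FM), 0.57 (ICJ|FM), 0.22 (ACJ|FM), 0.17 (IWA|FM) and 0.30 (AWA|FM). Genes ranked 101 to 1000 then had 0.28, 0.38, 0.20, 0.19 and 0.26 in the same order. Ranking by RPKM kept 57 of the 100 genes, and TMM scaling put 54 rather than 34 higher in the DI. Over 90 pairs of libraries with the same replicate number, correlations had medians of -0.0006 (DI) and 0.036 (spleen), and 32 and 35 of them exceeded 0.1. Pairs with other numbers had medians of -0.003 and -0.017. Single values of the same number ran from -0.49 to 0.54 (DI) and from -0.38 to 0.49 (spleen). Whether the numbers stand for tanks or another block was not tested. What depth and unlabelled tanks limit here was not tested.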
